A study of Mus musculus with 8 samples.

Results

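Pax7, Pax3, Myf5, Myod1, Myog, Myf6, Mef2a, Mef2c and Cdh15 are the genes that mark muscle stem cells or drive their conversion into fibres. These 9 genes were taken by symbol from the 12393 genes measured, each read on the probe set with the highest mean over all 8 arrays. The arrays held total RNA of 6 primary soft tissue sarcomas and of 2 muscles from hind limbs that bore no tumour. Of the sarcomas, 4 were from mice labelled Braf Ca/Ca (BrafCa allele on both chromosomes, tumours 1, 2, 3 and 5) and 2 from mice labelled Braf Ca/+ (tumours 1 and 2), and each genotype gave 1 muscle. All 8 samples, the muscles included, were labelled p53 Fl/Fl, so both alleles were floxed in sarcoma and muscle alike. The tumours followed injection of an adenovirus that expresses the recombinase Cre. The labels name no promoter that would limit Cre to a cell type and give neither age nor strain. Since no label says that each sample was a different mouse, the p-values here speak for the scatter of these samples alone, part of which may be technical.

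Satellite cells are the stem cells of skeletal muscle and lie between the fibre and its sheath, where they carry the transcription factor Pax7 and the adhesion molecule M-cadherin (Cdh15). On activation they switch on the myogenic regulatory factors, basic helix-loop-helix proteins that pair with E proteins and bind E-boxes. Myf5 and Myod1 set the myoblast fate, Myog starts terminal differentiation, and Myf6 (MRF4) is the family member that stays high in adult fibres. The MEF2 proteins work beside them on the genes of the contractile apparatus.

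The deposited values were log2 levels made with RMA, and array medians lay between 5.79 and 5.90. Correlations over all genes were 0.940 to 0.983 between sarcomas, 0.968 between the muscles, and 0.860 to 0.932 across tissues. The muscles carried the fibre markers of their label, with a mean of 17 mature fibre genes of 11.42 and 11.56, against 6.07 to 7.77 in the sarcomas' arrays. As a gauge of unexpressed probe sets, 46 genes of other organs (retina, pituitary, testis and the like) had mean levels with a 5th to 95th percentile of 2.00 to 5.49. Background differs between probe sets, so a level inside or below this band is called near background here and does not show absence.

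All 9 genes lay lower in each of the 6 sarcomas than in both muscles, as did 19% of all genes. Of the 9, 8 fell by limma's test with Benjamini-Hochberg adjustment over all 12393 genes at 0.05, where 13.2% of all genes fell and 26.3% changed in either direction. The median difference of the 9 was -0.98 on the log2 scale, against 0.03 over all genes. In bulk tissue, fewer cells of a type and less RNA per cell cannot be told apart, and the fibre markers fell with these genes on the same arrays. Of the 17 fibre markers, 16 fell and 1 did not pass, and their part in the result was not tested. Without the Ca/+ muscle 4 of the 9 passed, namely Myod1, Myog, Myf6 and Cdh15, where the other muscle stands alone and is assumed to vary like the sarcomas.

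**Figure D1:**
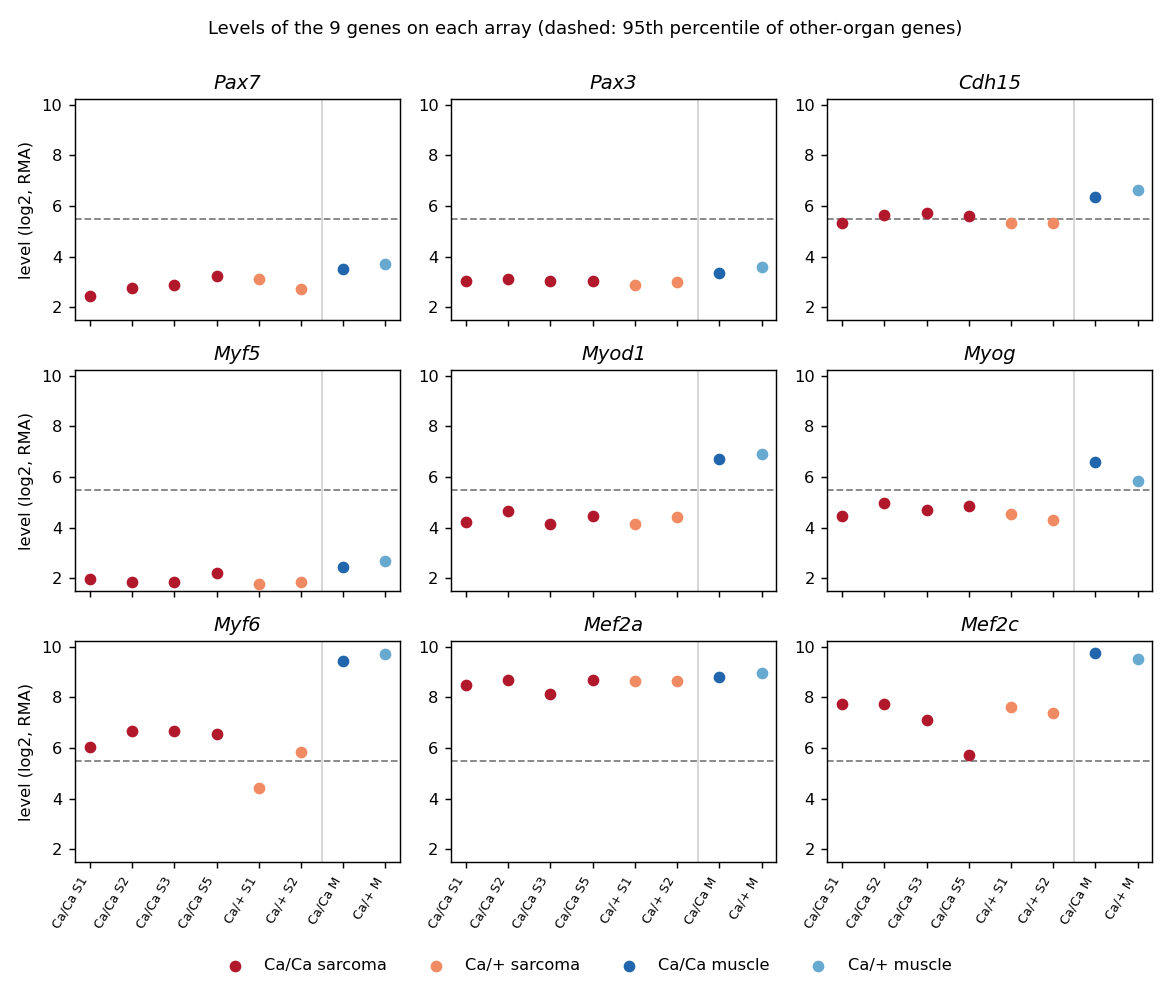
Level (log2, RMA) of each of the 9 genes on each array, with sarcomas (S) left of the vertical line and muscles (M) right of it, coloured by Braf genotype. The dashed line is the 95th percentile (5.49) of the 46 genes of other organs: Pax7, Pax3 and Myf5 stay below it on all 8 arrays, while Myod1 and Myog lie above it in both muscles and below it in all 6 sarcomas.

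Pax7, the paired-box factor which satellite cells need for their maintenance, had levels of 2.46 to 3.25 with a median of 2.83 in the 6 sarcomas, against 3.50 (Ca/Ca muscle) and 3.72 (Ca/+ muscle). The groups did not overlap, and Pax7 fell by 0.74 (SE 0.21, adjusted p = 0.0334, limma). Both groups sat inside the band of genes of other organs, so the defining marker of satellite cells was near background on every array, muscles included. The call was lost without either muscle (adjusted p = 0.0864 with the Ca/Ca one left out and 0.237 with the Ca/+ one left out), and without Ca/Ca sarcoma 2 (0.0638), Ca/Ca sarcoma 3 (0.0503) or Ca/+ sarcoma 2 (0.0628). Quantile normalization (0.0635) and genotype as a covariate (0.0509) ended it too, and Pax7 passed in 10 of 19 alternative settings.

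Pax3, the paralog that directs the migration of embryonic limb myoblasts, had 2.88 to 3.13 with a median of 3.04 in sarcomas, against 3.34 (Ca/Ca muscle) and 3.61 (Ca/+ muscle). It too was near background on all 8 arrays. It fell by 0.45 (SE 0.12, adjusted p = 0.028, limma), with no overlap of the groups. A second probe set of Pax3 gave -0.35 and did not pass (adjusted p = 0.165 over 20380 probe sets). Without the Ca/+ muscle the difference was -0.32 (adjusted p = 0.267), and without Ca/+ sarcoma 2 the adjusted p was 0.0503. Pax3 also missed the threshold after quantile normalization (0.0785) and cyclic loess (0.0514), and passed in 13 of 19 alternative settings.

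Among the myogenic regulatory factors, Myf5 had 1.80 to 2.22 with a median of 1.86 in sarcomas, against 2.47 (Ca/Ca muscle) and 2.70 (Ca/+ muscle). Myf5, which acts early in the myoblast fate, was the third of the 9 genes near background throughout. It fell by 0.66 (SE 0.15, adjusted p = 0.0122, limma), and not past the threshold without the Ca/+ muscle (adjusted p = 0.138). For scale, the 46 genes of other organs had differences with a 5th to 95th percentile of -0.58 to 0.37. Of those 46 genes, 2 had a difference as low as that of Pax7, 5 as low as that of Pax3 and 2 as low as that of Myf5. Shifts of this size were therefore also found among probe sets for genes of other organs. The same count was 1 for Myog, 2 for Cdh15 and 6 for Mef2a, and 0 for Myod1, Myf6 and Mef2c.

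Myod1, which can convert other cell types to muscle, was high in both muscles and low in every sarcoma. Its levels were 4.24, 4.66, 4.14 and 4.44 in the Ca/Ca sarcomas and 4.17 and 4.40 in the Ca/+ sarcomas, against 6.72 (Ca/Ca muscle) and 6.89 (Ca/+ muscle). The groups were wide apart, with means of 4.34 ± 0.20 in sarcomas (SD, n = 6) and 6.81 ± 0.12 in muscles (SD, n = 2). Myod1 fell by 2.46 (SE 0.16, adjusted p = 4.02e-05, limma) and passed in each of 20 alternative settings. Its level in all 6 sarcomas was inside the band of genes of other organs, so the difference is set against levels near background and gives no exact fold.

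Myog, the factor that commits myoblasts to fuse and differentiate, had 4.48, 4.96, 4.70 and 4.85 in the Ca/Ca sarcomas and 4.55 and 4.30 in the Ca/+ sarcomas, against 6.59 (Ca/Ca muscle) and 5.85 (Ca/+ muscle). The sarcomas were again inside the band and the muscles above it. Myog fell by 1.58 (SE 0.23, adjusted p = 0.00219, limma), again with no exact fold since the sarcomas were near background. The muscles differed from each other by 0.73, the widest gap between muscles among the 9 genes. The Myog promoter is printed because Myog is itself a known target of myogenic factors, which bind E-boxes. It is 250 bases before and 50 after the start on the plus strand of GRCm38.p6, chr1:134289754-134290053, from RefSeq, with capitals for E-boxes (CANNTG) and for TCAGGTT, the core of the MEF3 site bound by sine oculis homeobox factors.
Myog: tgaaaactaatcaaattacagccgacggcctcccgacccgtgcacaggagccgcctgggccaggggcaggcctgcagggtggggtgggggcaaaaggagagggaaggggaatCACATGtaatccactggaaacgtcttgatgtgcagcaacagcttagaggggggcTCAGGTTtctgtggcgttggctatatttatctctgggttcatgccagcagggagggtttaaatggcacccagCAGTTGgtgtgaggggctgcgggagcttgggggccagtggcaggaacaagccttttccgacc
Counted from the start base as 1, the E-boxes CACATG and CAGTTG stood at -138 to -133 and -12 to -7, and TCAGGTT at -84 to -78. Searched on both strands, an E-box stood in 72.3% and TCAGGTT in 4.07% of all 32851 promoter windows of this length.

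Myf6 had the largest difference of the 9 genes. Its levels were 6.02, 6.68, 6.66 and 6.57 in the Ca/Ca sarcomas and 4.43 and 5.82 in the Ca/+ sarcomas, against 9.41 (Ca/Ca muscle) and 9.72 (Ca/+ muscle). Means were 6.03 ± 0.86 in sarcomas (SD, n = 6) and 9.57 ± 0.21 in muscles (SD, n = 2). Myf6 fell by 3.53 (SE 0.56, adjusted p = 0.00281, limma), 11.6-fold lower in sarcomas, and passed in all 21 alternative settings. It stayed above the band of genes of other organs in 5 of the 6 sarcomas, the exception being Ca/+ sarcoma 1. Myf5 and Myf6 are neighbours on chromosome 10, and both fell, though Myf5 was near background in the muscles as well.

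Of the MEF2 genes, Mef2c fell and Mef2a did not pass. Mef2c, a MEF2 factor of muscle, vessels, neurons and blood cells, had 7.72, 7.72, 7.09 and 5.74 in the Ca/Ca sarcomas and 7.63 and 7.40 in the Ca/+ sarcomas, against 9.75 (Ca/Ca muscle) and 9.49 (Ca/+ muscle). It fell by 2.41 (SE 0.49, adjusted p = 0.00883, limma), 5.30-fold lower in sarcomas. All 5 of its probe sets fell, with differences of -2.58 to -2.32, and on all 5 the lowest array was Ca/Ca sarcoma 5. The difference stayed near this size without a muscle but did not pass, at -2.28 without the Ca/Ca muscle (adjusted p = 0.0604) and -2.54 without the Ca/+ muscle (adjusted p = 0.0634).

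Mef2a, which is made in most tissues, had 8.13 to 8.68 with a median of 8.64 in sarcomas, against 8.78 (Ca/Ca muscle) and 8.94 (Ca/+ muscle). Its difference was -0.32 (SE 0.17, adjusted p = 0.205, limma), with a 95% interval of -0.71 to 0.06. None of its 5 probe sets passed, at -0.35 to -0.07. The interval leaves room for a decrease, and the lowest sarcoma was Ca/Ca sarcoma 3 at 8.13. After cyclic loess normalization Mef2a passed, at -0.55 (adjusted p = 0.037), the one setting of 21 in which it did.

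Cdh15, the M-cadherin that holds satellite cells to fibres and joins myoblasts, had 5.34, 5.65, 5.73 and 5.60 in the Ca/Ca sarcomas and 5.35 and 5.34 in the Ca/+ sarcomas, against 6.35 (Ca/Ca muscle) and 6.62 (Ca/+ muscle). The 6 sarcomas were within 0.39 of each other and 3 of them were above the band of genes of other organs. Cdh15 fell by 0.98 (SE 0.16, adjusted p = 0.00324, limma), with no exact fold since the other sarcomas were inside the band. Of the 46 genes of other organs, 2 had a difference as low as that of Cdh15. Its promoter is shown because it held the most E-boxes of the members' windows, from chr8:122848124-122848423 on the plus strand of GRCm38.p6 (RefSeq), with capitals for E-boxes (CANNTG).
Cdh15: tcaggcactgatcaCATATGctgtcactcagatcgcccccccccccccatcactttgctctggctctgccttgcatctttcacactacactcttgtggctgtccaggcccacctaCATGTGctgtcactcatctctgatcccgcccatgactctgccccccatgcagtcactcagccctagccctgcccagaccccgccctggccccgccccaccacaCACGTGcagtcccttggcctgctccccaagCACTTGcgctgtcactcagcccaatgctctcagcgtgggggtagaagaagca
The 4 E-boxes were CATATG at -236 to -231, CATGTG at -135 to -130, CACGTG at -32 to -27 and CACTTG at -2 to 4. Windows were listed for 6 of the 9 genes, 8 windows in all, and 4 of these 8 (50%) held an E-box, against 72.3% of all promoters. The MEF2 site, searched on both strands in its strict consensus form, stood in 1 of the 8, that of Mef2a, as CTAAAAATAG at -2 to 8, and in 3.19% of all promoters. Looser AT-rich forms of the site were not searched, and the Myog window holds such a stretch, so no match in this form does not mean that a gene lacks a MEF2 element. By contrast the listed fibre targets of these factors (21 windows of 18 genes) held an E-box in 85.7%. They held the form CAGCTG in 42.9%, against 16.3% of all promoters and 0 of the members' 8 windows. The strict MEF2 site stood in 0 of the 21 target windows. TCAGGTT also stood in 0 of the 21, against 2 of the members' 8 windows (25%). These shares are descriptions of short windows and carry no test.

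**Figure D2:**
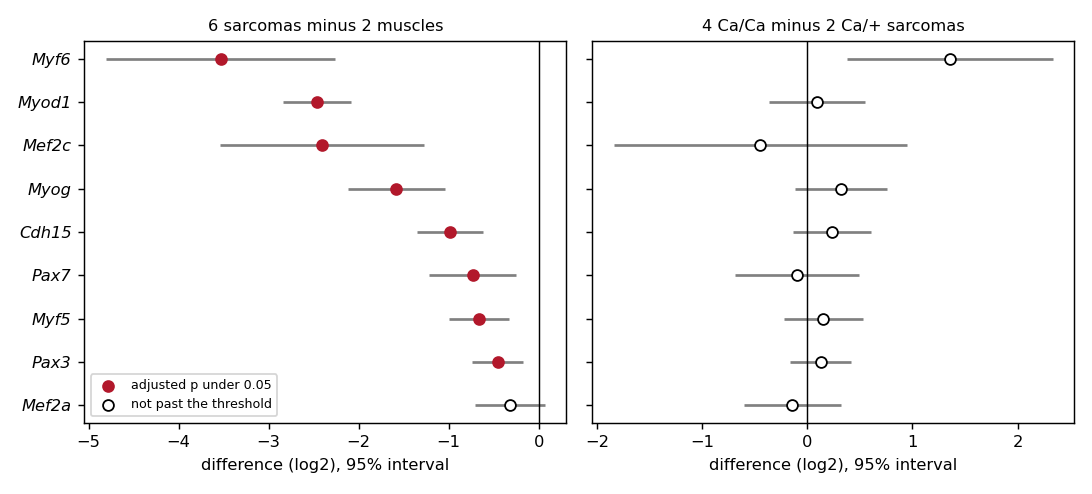
Difference (log2) of each of the 9 genes with its 95% interval, for 6 sarcomas minus 2 muscles on the left and for 4 Ca/Ca minus 2 Ca/+ sarcomas on the right. On the left 8 genes lie below 0 past the threshold (filled points), from -3.53 for Myf6 to -0.45 for Pax3. On the right no gene passes.

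Between Ca/Ca and Ca/+ sarcomas no difference of the 9 genes passed limma's test (adjusted p = 0.618 to 0.933), with differences of -0.45 to 1.35. Over all genes 0 of 12393 passed (0%), and 971 had an unadjusted p under 0.05. The 4 Ca/Ca sarcomas lay entirely to one side of the 2 Ca/+ sarcomas for 2 of the 9 genes, Pax3 and Myf6, where 21% of all genes did so.

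Myf6 was the member with the widest gap between genotypes, with 6.02, 6.68, 6.66 and 6.57 in the Ca/Ca sarcomas, against 4.43 and 5.82 in the Ca/+ sarcomas. Means were 6.48 ± 0.31 in Ca/Ca (SD, n = 4) and 5.13 ± 0.98 in Ca/+ sarcomas (SD, n = 2). The difference was 1.35 (SE 0.40, 95% interval 0.37 to 2.33), with an unadjusted p of 0.0145 and an adjusted p of 0.618 in limma. The size rests on both Ca/+ sarcomas, since the difference was 0.66 without Ca/+ sarcoma 1 and 2.05 without Ca/+ sarcoma 2. Ca/+ sarcoma 1 had the lowest fibre marker mean, 6.07, against 6.82 to 7.77 in the other sarcomas. It had the lowest endothelial marker mean as well, 5.93, against 6.27 to 6.73 in the others. The part of these cells in the Myf6 result was not tested.

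The effect of tissue on the 9 genes was also not shown to depend on genotype. In limma's interaction test none of the 9 passed (adjusted p = 0.749 to 0.994), where 1 of 12393 genes did (0.00807%) and 895 had an unadjusted p under 0.05. The largest interaction was that of Myf6, at 1.66 (adjusted p = 0.749), with each genotype represented by 1 muscle. It was 0.96 without Ca/+ sarcoma 1 and 2.35 without Ca/+ sarcoma 2. Between the muscles the 9 genes differed by -0.30 (Myf6) to 0.73 (Myog), Ca/Ca minus Ca/+, with no test.

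Among the 6 sarcomas, Myf6 and Mef2c were the 2 members that varied by at least 1 on the log2 scale, and they varied in different tumours. Myf6 ranged over 2.24, lowest in Ca/+ sarcoma 1, and Mef2c over 1.99, lowest in Ca/Ca sarcoma 5. Across the sarcomas the patterns most like that of Myf6, among 2051 genes with an SD of at least 0.5, were those of Plxdc2 (Pearson r = 0.993), Nol3, which encodes an inhibitor of cell death (0.992), and Des, the muscle intermediate filament desmin (0.975). Those most like Mef2c were Lmnb1, which encodes lamin B1 (0.990), Tle4, a corepressor (0.985), and Gstm2, a glutathione transferase (0.984). For each of the 2 genes 14 genes reached 0.95 over these 6 arrays. The points share arrays and normalization, and in each pattern 1 tumour lies far below the rest.

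Marker lists shared the lowest tumour of each pattern, but not the full order of the other tumours. Ca/Ca sarcoma 3 had the highest macrophage and B cell mean, yet its Mef2c (7.09) was above that of Ca/Ca sarcoma 5 alone. Ca/+ sarcoma 2 had a fibre marker mean of 7.59, below that of Ca/Ca sarcoma 2 alone, yet its Myf6 (5.82) was above that of Ca/+ sarcoma 1 alone. Apart from Ca/+ sarcoma 2, the sarcomas stood in the same order by Myf6 and by fibre marker mean. That mean was 7.77, 7.18, 7.10 and 6.82 in Ca/Ca sarcomas 2, 3, 5 and 1, and 6.07 in Ca/+ sarcoma 1. The mean of 14 macrophage and B cell markers was 7.95, 8.51, 8.52 and 6.87 in the Ca/Ca sarcomas and 7.45 and 8.12 in the Ca/+ sarcomas, against 7.82 (Ca/Ca muscle) and 7.54 (Ca/+ muscle). It was lowest in Ca/Ca sarcoma 5, the tumour with the lowest Mef2c, and so were the means of 11 pericyte and smooth muscle markers (6.17, other sarcomas 6.65 to 7.26) and of 14 fibroblast markers (8.18, other sarcomas 8.49 to 9.08). RMA values have no true 0 at which a marker could be absent. In the comparison with muscle 1 of the 14 macrophage and B cell markers rose, Cd68 by 0.98 (adjusted p = 0.0451, limma), and 13 did not pass. Cd68 was at 0.42 when the Ca/+ muscle was left out (adjusted p = 0.443) and also missed the threshold without any 1 of the 4 Ca/Ca sarcomas or without Ca/+ sarcoma 2 (0.0592 to 0.0746). With the Ca/Ca muscle or Ca/Ca sarcoma 5 left out, 2 of the 14 passed. The endothelial list fell with Mef2c in that comparison, 10 of 15 genes, with a mean of 5.93 to 6.73 in sarcomas, against 7.65 in the Ca/Ca and 8.01 in the Ca/+ muscle, and 4 of 15 passed without the Ca/+ muscle. The part of these cells in the Mef2c result was not tested.

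**Figure D3:**
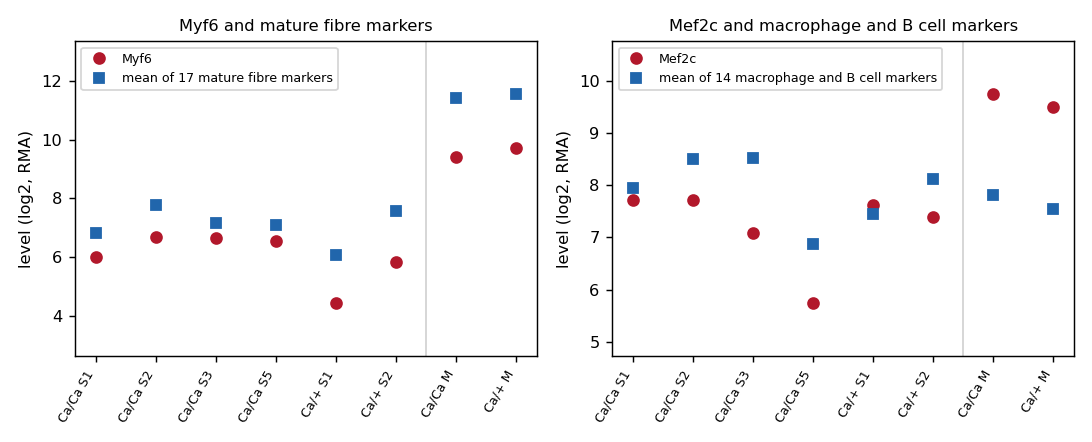
Level (log2, RMA) of Myf6 beside the mean of 17 mature fibre markers, and of Mef2c beside the mean of 14 macrophage and B cell markers, on each array with sarcomas (S) left of the vertical line and muscles (M) right of it. Myf6 and the fibre mean are lowest in Ca/+ sarcoma 1 (4.43 and 6.07), and Mef2c and the macrophage and B cell mean in Ca/Ca sarcoma 5 (5.74 and 6.87).

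Differences of genes near background in the sarcomas give no exact fold. All 6 sarcomas were near background for Lbx1, Dmrt2, Tbx1, Cav3, Actc1, Wnt4 and Camk2b, and all 8 arrays for Mef2b, Calcr, Mymk and Chrng.

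The partners of the myogenic factors moved in both directions. Of 5 E proteins and other MEF2 genes, 1 fell, 2 rose and 2 did not pass, with a median of 0.53, where 26.3% of all genes changed. Mef2d, the MEF2 gene with a splice form of mature muscle, fell by 1.32 (adjusted p = 0.0037, limma). The E proteins Tcf12 and Tcf3, which pair with Myod1, rose by 1.40 (adjusted p = 0.00561) and 1.06 (adjusted p = 0.0108). When the Ca/+ muscle was left out, 1 of the 5, Mef2d, passed, and Tcf12 and Tcf3 were at 1.33 (adjusted p = 0.0633) and 0.99 (adjusted p = 0.104). Tcf4 and Mef2b, named here after their values were seen, were at 0.53 (adjusted p = 0.0764) and -0.53 (adjusted p = 0.0758). Tcf4 passed without Ca/+ sarcoma 2 (0.61, adjusted p = 0.0427) and Mef2b without the Ca/Ca muscle (-0.89, adjusted p = 0.0126), while Mef2b was at -0.16 without the Ca/+ muscle.

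Of 19 upstream and embryonic regulators, 8 fell, 2 rose and 9 did not pass, with a median of -0.61, where 26.3% of all genes changed. Lbx1, which guides migrating limb myoblasts, had 3.85 to 4.39 in the sarcomas, against 7.92 (Ca/Ca muscle) and 7.65 (Ca/+ muscle), and fell by 3.67 (adjusted p = 5.9e-06, limma). Dmrt2, a regulator of Myf5 in the somite, fell by 3.53 (adjusted p = 0.000109), and Tbx1, which acts in head muscle, by 2.83 (adjusted p = 0.000203). The hindlimb factor Pitx1 rose by 1.21 (adjusted p = 0.0201), and Foxc2 by 2.26 (adjusted p = 0.0492) with sarcomas that overlapped the muscles. Pitx1 did not pass without the Ca/+ muscle (1.41, adjusted p = 0.0795) or the Ca/Ca muscle (1.01, adjusted p = 0.139), and Foxc2 was at 1.24 without the Ca/+ muscle (adjusted p = 0.43). Foxc2 also missed it without any 1 of the 4 Ca/Ca sarcomas or without Ca/+ sarcoma 2 (0.0674 to 0.0878). The 10 calls of this list became 4 without the Ca/+ muscle, 5 without the Ca/Ca muscle or Ca/Ca sarcoma 1, and 6 without Ca/Ca sarcoma 2 or Ca/+ sarcoma 2.

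Of 24 inhibitors of the myogenic factors, 6 rose, 1 fell and 17 did not pass, with a median of 0.13, a share of calls close to the 26.3% of all genes. Twist2, which blocks Myod1 and its E protein partners, had 7.55 to 8.79 in the sarcomas, against 6.43 (Ca/Ca muscle) and 5.52 (Ca/+ muscle), and rose by 2.37 (adjusted p = 0.00257, limma). Its paralog Twist1 rose by 2.18 (adjusted p = 0.00651) and the cyclin Ccnd1, which holds myoblasts in cycle, by 2.65 (adjusted p = 0.015). Bhlhe40, a repressor of Myod1 activity, fell by 0.87 (adjusted p = 0.0415). In the fit that left out the Ca/+ muscle, Twist1 was at 2.05 (adjusted p = 0.0728), Ccnd1 at 1.29 (adjusted p = 0.107) and 1 of the 24 passed, and without Ca/+ sarcoma 2 4 passed. Ccnd1 was at 4.01 without the Ca/Ca muscle. Bhlhe40 did not pass without either muscle (adjusted p = 0.179 and 0.177), Ca/Ca sarcoma 5 (0.0526), Ca/+ sarcoma 1 (0.0682) or Ca/+ sarcoma 2 (0.0748).

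Other genes listed for the satellite cell surface and niche were mixed: of 26, 3 fell, 5 rose and 18 did not pass, with a median of 0.11. This was again a share near the 26.3% of all genes. Ndrg2 fell by 3.61 (adjusted p = 0.000391, limma), the receptor Notch3 by 1.93 (adjusted p = 0.00106) and Itga7, the laminin receptor of muscle, by 1.82 (adjusted p = 0.00486). Notch3 is counted in the list of pericyte and smooth muscle markers as well. Vcam1, an adhesion molecule of satellite cells and of vessels, had 8.67 to 10.15 in the sarcomas, against 7.38 (Ca/Ca muscle) and 7.32 (Ca/+ muscle), and rose by 2.16 (adjusted p = 0.00345). Ncam1 rose by 2.84 (adjusted p = 0.0367) and Notch2 by 1.71 (adjusted p = 0.0128). Without the Ca/+ muscle, where 4 of the 26 passed, Ncam1 was at 1.73 (adjusted p = 0.347), Notch2 at 1.29 (adjusted p = 0.154) and Itga7 at -1.44 (adjusted p = 0.0701). Ncam1 also missed the threshold without Ca/Ca sarcoma 1 (0.0599), Ca/Ca sarcoma 2 (0.0594), Ca/+ sarcoma 1 (0.0514) or Ca/+ sarcoma 2 (0.0662). Cd34 and Calcr, chosen after their values were seen, were at 0.36 (adjusted p = 0.468) and 0.12 (adjusted p = 0.897), and the sign of Calcr turned under centring on housekeeping or ribosomal protein genes and without Ca/Ca sarcoma 5 or the Ca/Ca muscle.

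Of 26 genes of myoblast fusion and early differentiation, 7 fell, 2 rose and 17 did not pass, with a median of -0.25. Among all genes 13.2% fell and 13.1% rose. Des fell by 3.39 (adjusted p = 0.00135, limma), Cav3, the caveolin of the fibre membrane, fell by 3.35 (adjusted p = 1.68e-05) and Dysf, which repairs that membrane, by 1.69 (adjusted p = 0.00123). The dysferlin relative Myof rose by 2.18 (adjusted p = 0.00709) and N-cadherin (Cdh2), which myoblasts share with fibroblasts and nerve, by 2.17 (adjusted p = 0.00674). Leaving out the Ca/+ muscle gave 4 calls among the 26, with Myof at 1.31 (adjusted p = 0.0578) and Cdh2 at 1.89 (adjusted p = 0.0854). Genes of newly formed fibres were examined after their values were seen. The embryonic and perinatal myosins Myh3 and Myh8 fell by 0.88 and 0.89 (adjusted p = 0.0057 and 0.0046) with both groups near background, and Myh3 was at -0.77 without the Ca/+ muscle (adjusted p = 0.0745). The fusion protein gene Mymk was at -0.30 (adjusted p = 0.274) and the fetal acetylcholine receptor subunit Chrng at -0.38 (adjusted p = 0.195). Chrna1, the receptor subunit shared by fetal and adult muscle, had 7.59 to 10.50 in sarcomas, against 8.28 (Ca/Ca muscle) and 6.36 (Ca/+ muscle), a difference of 2.06 that did not pass (adjusted p = 0.0782), and leaving out Ca/Ca sarcoma 1 brought it past the threshold (2.42, adjusted p = 0.0209). Chrna1 was at 1.10 without the Ca/+ muscle and at 3.02 without the Ca/Ca muscle, and passed in neither case.

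The targets that these factors switch on in fibres fell almost throughout. Of 23, 22 fell, 0 rose and 1 did not pass, with a median of -4.03, where 13.2% of all genes fell. Ckm is counted among the mature fibre markers as well. Ldb3 of the Z disc fell by 5.96 (adjusted p = 6.58e-05, limma), cardiac actin Actc1 by 5.51 (adjusted p = 2.22e-05) and Myom1 of the M band by 5.21 (adjusted p = 1.04e-05). The count stayed at 18 to 22 with each array left out. Their median difference was further from 0 than that of the 9 regulators (-0.98), of which Pax7, Pax3 and Myf5 were near background in muscle as well.

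Of 26 class IIa deacetylases and coregulators of MEF2, 6 fell, 1 rose and 19 did not pass, with a median of -0.22 and a share of calls near the 26.3% of all genes. Smarcd3 (BAF60c), the chromatin partner of Myod1, had 5.37 to 5.84 in sarcomas, against 9.21 (Ca/Ca muscle) and 9.23 (Ca/+ muscle), and fell by 3.52 (adjusted p = 5.17e-06, limma). The kinase gene Camk2b fell by 2.25 (adjusted p = 0.000133) and the calcineurin regulator Rcan2 by 2.23 (adjusted p = 0.0269). Ppp3cb, a calcineurin subunit, rose by 0.88 (adjusted p = 0.0265), but the mean of its probe sets gave -0.26 (adjusted p = 0.487), so its direction depends on the probe set. Without the Ca/+ muscle or the Ca/Ca muscle 3 of the 26 passed, and neither Rcan2 (adjusted p = 0.165 and 0.111) nor Ppp3cb (0.116 and 0.153) was among them. Ppp3cb also missed the threshold without Ca/Ca sarcoma 2 (0.0504).

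Of 19 genes of growth signals around myogenesis, 4 fell, 3 rose and 12 did not pass, with a median of -0.04. Over all genes 26.3% changed in either direction. Wnt4, which promotes myogenic differentiation, fell by 2.50 (adjusted p = 0.000204, limma), the growth factor Igf1 fell by 2.14 (adjusted p = 0.00286) and Acvr2a, a receptor for activin and myostatin, by 2.05 (adjusted p = 0.000123). Those that rose were Wnt5a by 1.92 (adjusted p = 0.0149), the activin subunit Inhba by 1.77 (adjusted p = 0.0196) and its binding protein Fstl3 by 1.00 (adjusted p = 0.0392). A fit without the Ca/+ muscle called 4 of the 19, with Wnt5a at 1.19 (adjusted p = 0.178), Inhba at 1.15 (adjusted p = 0.222) and Fstl3 at 0.75 (adjusted p = 0.305). Fstl3 also missed the threshold without the Ca/Ca muscle (0.0669), Ca/Ca sarcoma 2 (0.0613), Ca/Ca sarcoma 5 (0.0556), Ca/+ sarcoma 1 (0.0665) or Ca/+ sarcoma 2 (0.0503). No gene of these pathway lists passed between Braf genotypes or in the interaction.

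**Figure D4:**
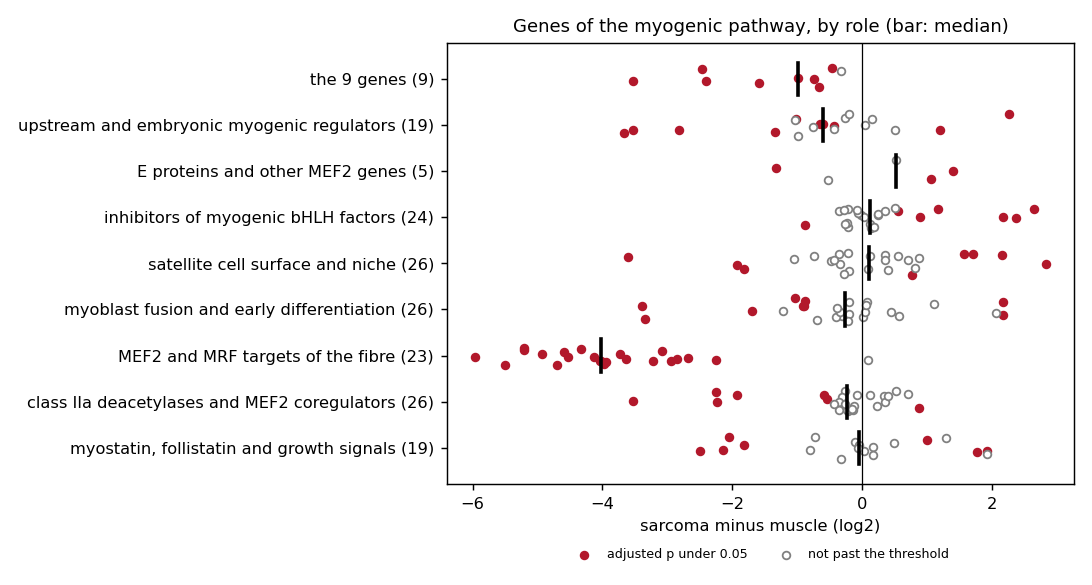
Difference (log2, sarcoma minus muscle) of each gene of the pathway lists, 1 point per gene, filled where the adjusted p is under 0.05, with a bar at the list's median and the number of genes in brackets. The fibre targets lie furthest below 0 (median -4.03) and the 9 regulators have a median of -0.98, while the inhibitors (median 0.13) and surface genes (median 0.11) spread to both sides.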

How the data were processed

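Total RNA was hybridised to 8 Affymetrix arrays. The deposited values were log2 levels per probe set, made by the authors with RMA per the submitters' processing notes; joint processing and scan batches are not given in the sources used here. RMA gives arrays 1 distribution, so total RNA content is not measured. Of 22690 probe sets, 64 were controls, 20380 had 1 symbol, 691 had several and 1555 were unnamed here. Per gene the probe set of highest mean over 8 arrays was used. No array copied another (at most 54 equal values).

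Tests used limma 3.58.1 in R 4.3.3 (lmFit, eBayes), adjusted over 12393 genes by Benjamini-Hochberg with a threshold of 0.05, and the procedure was tested on simulated data. The interaction used 4 group means. Named genes were the 9 members, at most 3 rises and 3 falls of largest size among called genes per list, and the 3 nearest patterns per variable member. Members and lists were chosen with earlier results of these data known. Promoters (6 of 9 members; none listed for Myod1, Myf6 and Pax3) are from RefSeq, GRCm38.p6. Alternatives changed the normalization, centring, filter, probe set rule, variance model, covariate and arrays used. Figures used Python 3.11.15 and matplotlib 3.10.9.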

Additional observations from a re-analysis of the deposited data

Results flagged for a closer look

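Among 80 genes looked at in the 6 sarcomas and in the 4 Ca/Ca sarcomas (160 groups), a single tumour stood apart from its group 20 times by Dixon's criterion, 11 among the 6 and 9 among the 4. Chance flags about 1 in 20 groups, but the 20 here cannot be set against that rate, since some genes were chosen after their values were seen or for a pattern like that of Myf6 or Mef2c, and the 4 lie within the 6. Of the 9 myogenic genes, 3 had such a tumour. Mef2c was at 5.74 in Ca/Ca sarcoma 5, with the other 5 sarcomas at 7.09 to 7.73. Mef2a was at 8.13 in Ca/Ca sarcoma 3, with the others at 8.50 to 8.68. Myf6 was at 6.02 in Ca/Ca sarcoma 1, with the other 3 Ca/Ca sarcomas at 6.57 to 6.68.

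Ca/Ca sarcoma 5 also stood apart among the 6 sarcomas for Gstm2 (5.25), for Id3, an inhibitor of the myogenic factors (10.29), and among both the 6 and the 4 for Calcr, a receptor of quiescent satellite cells (5.28, others 3.17 to 3.37), and the macrophage gene Aif1 (6.59). Among the 4 Ca/Ca sarcomas it was apart for Ptprc, the pan-leukocyte CD45 (7.86, others 10.06 to 10.46), Pitx1 (7.07) and Ndrg2 (8.10). Calcr, Id3, Aif1 and Ptprc were chosen after their values were seen.

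Ca/+ sarcoma 1 was apart for Plxdc2 (5.80) and for the fibre gene Ckm (7.26, others 9.23 to 10.07), which was chosen after its values were seen, and Ca/+ sarcoma 2 for Ckmt2 (4.35). Ca/Ca sarcoma 3 was apart for Tcf3 (7.47) among the 6, and for Smarcd3 (5.56) and Camk2b (4.26) among the 4. Ca/Ca sarcoma 1 was apart for Myom1 (5.51) and Ca/Ca sarcoma 2 for Mef2b (4.16).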

How the results depend on the processing

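With 2 muscles, 1 per genotype, the call count for sarcoma against muscle rests on each of them. Leaving out 1 array at a time gave 1195 to 3451 genes called (3256 with all) and 4 to 8 of the 9 myogenic genes (8 with all), with the lowest of both without the Ca/+ muscle. With the Ca/Ca arrays alone 601 genes and 3 myogenic genes passed, and with the Ca/+ arrays alone 1287 and 3. Without the dimmest 25% of genes 5 of the 6 myogenic genes still tested passed, and without the dimmest 50% 2 of the 3 did. Each of the 8 kept its sign in every setting. Lower and higher calls numbered 1630 and 1626, against 1830 and 1157 after cyclic loess, 2498 and 996 with centring on housekeeping genes (median of all genes moved by -0.22) and 3434 and 513 with ribosomal protein genes (by -0.36), and 8 myogenic genes fell in all 4, though after cyclic loess Mef2a passed (-0.55) and Pax3 did not (adjusted p = 0.0514). Quantile normalization gave 6 of the 9 (Pax7 0.0635, Pax3 0.0785) and genotype as a covariate 7 (Pax7 0.0509). Between genotypes, leaving out 1 array gave 0 to 1 genes called, the 1 without Ca/+ sarcoma 1. The 1 gene of the interaction became 13 with array weights, 17 with a trended robust prior, 0 with ribosomal protein centring or without the dimmest 25% or 50%, and 0 to 1 with 1 array left out. Whether the tumour numbers 1 and 2 pair the genotypes cannot be told from these arrays. Deviations of the 2 Ca/+ sarcomas from their mean mirror each other. Correlations of deviations were thus -0.19 and 0.29 for matched numbers and 0.19 and -0.29 for unmatched ones. With the number as a replicate block 0 genes and 0 of the 9 passed. Numbers 3 and 5 hold 1 sarcoma each, so that fit cannot decide it either. Ppp3cb turned sign, to -0.26, with the mean of its probe sets. The cause of these moves was not tested. Small changes of Pax7, Pax3 and Myf5 are limited by signals near background.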

Other observations

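Marker lists of other cells of the limb gave these values for sarcoma against muscle (limma, threshold as above). Among all genes 13.2% fell and 13.1% rose, and the fibroblast and Schwann cell counts lay near these shares. Of 17 mature fibre markers 16 fell, led by Ckmt2 (-7.43), Casq1 (-5.86) and Pvalb (-5.54), with a median of -4.52. Of 15 endothelial markers 10 fell and 5 did not pass, with a median of -1.10, led by Vwf (-2.87), Tek (-2.41) and Sox17 (-2.34). Of 11 pericyte and smooth muscle markers 4 fell, namely Des (-3.39), Myh11 (-3.39), Abcc9 (-2.50) and Notch3 (-1.93), and 7 did not pass. Des is counted in the list of myoblast fusion and early differentiation as well, and Notch3 in that of the satellite cell surface. Of 14 fibroblast markers 2 fell, Dpt (-3.04) and Gli1 (-0.61), 1 rose, Thy1 (1.73), and 11 did not pass; without the Ca/+ muscle 0 passed. Gli1 missed the threshold with the Ca/Ca muscle, Ca/Ca sarcoma 1, Ca/Ca sarcoma 2 or Ca/+ sarcoma 2 left out as well. Of 10 Schwann cell and melanocyte markers 2 fell, S100b (-1.89) and Erbb3 (-0.88), and 8 did not pass; without the Ca/Ca muscle 0 passed, and without any 1 of the sarcomas Erbb3 did not (adjusted p = 0.0555 to 0.0757). Without the Ca/+ muscle 4 of the 15 endothelial markers passed. All 6 sarcomas were near background for Ckmt2, Myh11, Abcc9, S100b, Erbb3 and Gli1, so these differences give no exact fold. None of these markers passed between Braf genotypes or in the interaction.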
